A study of Mus musculus with 4 samples.

Results

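10 genes of the heterogeneous nuclear ribonucleoprotein (hnRNP) family were followed across 4 microarrays of mouse gut RNA, of which 3 carried RNA precipitated with an antibody and 1 the input RNA. The genes, Hnrnpc, Hnrnpa2b1, Hnrnph1, Hnrnph2, Hnrnpf, Hnrnpk, Hnrnpu, Hnrnpl, Hnrnpd and Ptbp1, were taken by symbol, with every probe set annotated to one of them alone. This gave 16 of 34760 probe sets, and 10 of the 19937 genes with such a probe set. Hnrnpf and Hnrnpk had 3 probe sets each, Hnrnph2 and Ptbp1 had 2 each, and the remaining 6 genes had 1 each. Where 1 value per gene is given, it is that of the probe set with the brightest average signal on the 4 arrays.

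The intestinal epithelium came from adult C57BL/6 mice, and the gut had been irradiated with ultraviolet light to crosslink RNA to the proteins it touched (crosslinking and immunoprecipitation, CLIP). The 4 groups were the Msi1 precipitate (antibody Millipore AB5977), the hnRNP precipitate (an antibody labelled only hnRNP), the IgG precipitate as the nonspecific control, and input RNA with no antibody. Each was hybridized to 1 Affymetrix Mouse Gene 1.0 ST array, which carried the pooled RNA of 2 experiments, with 100 ng labelled. All 4 groups shared strain, stage and tissue, and no group was replicated, so no p-value was computed and every comparison describes these 4 arrays.

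The hnRNP proteins coat nascent transcripts in the nucleus and act in splicing, export, stability and translation of RNA, and many of them move between nucleus and cytoplasm. Several are known to bind and regulate their own transcripts or those of their relatives, often through alternative exons that lead to decay of the RNA. Musashi1 (Msi1) is an RNA-binding protein of progenitor cells that recognizes short motifs around UAG, mostly in mature mRNA.

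A signal counted as above background when it passed its array's floor, the 95th percentile of the signals of 1204 probe sets for smell and pheromone receptors (olfactory and vomeronasal), genes foreign to gut. This put the floor at 4.74 log2 units for Msi1, 5.17 for hnRNP, 5.26 for IgG and 4.09 for input. Of all genes, 47.7% passed on the Msi1 array, 32.9% on hnRNP, 28.1% on IgG and 59.1% on input. On the input array, 8 of 8 markers of gut epithelium were above the floor, against 4 of 5 immune, 2 of 5 stromal and muscle, 0 of 5 neuronal and glial and 0 of 2 endothelial markers. Without replicates, 2 spreads serve as yardsticks for a difference of Msi1 minus IgG. The central 95% of receptor genes lay between −1.57 and 0.74, and 2 probe sets of the same gene differed from each other by a median of 0.97 over 336 genes. Neither measures the spread of repeated precipitations. The receptor range is also drawn from signals that lie mostly below the floor, so it is a rough guide for brighter ones.

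All 10 transcripts stood above the floor in input, and 9 did so in the Msi1 precipitate. In the hnRNP precipitate 6 of the 10 passed, and in the IgG precipitate 5. Of the 16 probe sets, 12 read highest on input, 3 on Msi1 and 1 on IgG. Among the 3 precipitates alone, Msi1 was the highest for 14 of the 16. These include 1 probe set of Hnrnpf (4.68 in Msi1) and 1 of Ptbp1 (4.65) that were below the floor in all 3. The shares of all probe sets with such orders are not given here, so these counts describe the 16 only. In the input, which is bulk RNA, more cells that carry a transcript and more of it per cell cannot be told apart.

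**Figure D1:**
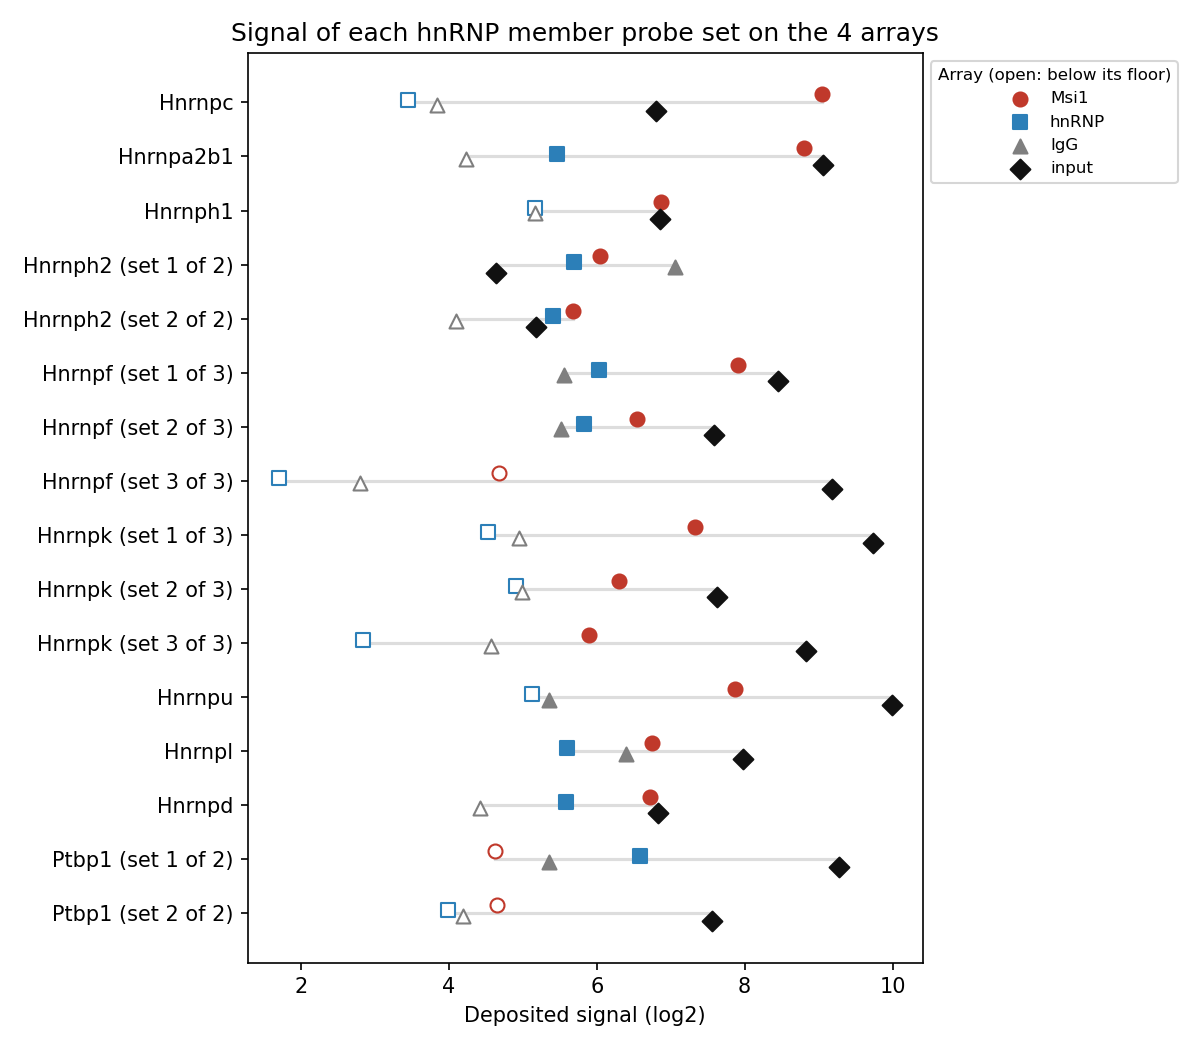
Deposited log2 signal (horizontal axis) of the 16 probe sets (rows) on the Msi1, hnRNP, IgG and input arrays; filled symbols lie above the floor of their array and open symbols below it, and points of a row are set slightly apart so that none is hidden. Hnrnpc was the transcript whose Msi1 signal (9.04) lay furthest above its own input signal (6.80), and both Ptbp1 probe sets lay below the floor in Msi1.

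Against IgG, 7 of the 10 transcripts were higher in the Msi1 precipitate by 2-fold or more, 1 was lower by as much and 2 were neither. Over all 10360 genes tested, 18.6% were higher by this measure and 6.91% lower. Among genes more than 2-fold above the floor in input, as 9 of the 10 were, the share higher was 27.1% and the share lower 2.81%. The median difference of the 10 was 2.32 log2 units, against 0.06 for all genes tested. In 5 of the 7 the IgG signal lay below its floor, so the fold is a lower bound there, and all 7 stayed past 2-fold with IgG raised to the floor.

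Hnrnpc, on chromosome 14 (52073377 to 52104039, GRCm38.p6), encodes a nuclear protein that binds uridine tracts and helps to package pre-mRNA. It read 9.04 in Msi1, 3.45 in hnRNP, 3.84 in IgG and 6.80 in input. Its signal was thus well above the floor in Msi1 and input and below it with both other antibodies. The difference of Msi1 minus IgG was 5.20 log2 units as deposited, and the Msi1 signal was at least 13.7-fold above that of IgG. Hnrnpc was also 4.71-fold higher in Msi1 than in input (2.24 log2 units, rank 65 of 12775 genes). It was 1 of 128 genes (0.942% of 13587) whose Msi1 signal exceeded that of each of the other 3 arrays by 2-fold or more. None of the other 9 transcripts was among them, but Syncrip, of the wider hnRNP list read below, was.

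Hnrnpa2b1, on chromosome 6 (51460434 to 51470048), encodes a protein of splicing and RNA transport. It read 8.80 in Msi1, 5.46 in hnRNP, 4.23 in IgG and 9.06 in input. The Msi1 signal was nearly that of input, and the IgG signal was below the floor. Msi1 minus IgG was 4.57 as deposited (at least 11.6-fold), while Msi1 minus input was −0.25.

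Hnrnph1, Hnrnph2 and Hnrnpf encode close relatives that bind runs of guanosine. Hnrnph1 (chromosome 11, 50375257 to 50386528) read 6.87 in Msi1, 5.17 in hnRNP, 5.17 in IgG and 6.86 in input, so that Msi1 and input were level and both other precipitates lay just below their floors. The Msi1 signal was at least 3.05-fold above that of IgG. Hnrnpf (chromosome 6, 117900340 to 117925622) read 7.91 in Msi1, 6.03 in hnRNP, 5.56 in IgG and 8.46 in input on its leading probe set, above the floor on all arrays, and its Msi1 signal was 5.10-fold that of IgG. Its second probe set read 6.55, 5.83, 5.52 and 7.59 in the same order and was 2.04-fold higher. The third was above the floor on input only, where it read 9.18, and gave 4.68 in Msi1 and 2.80 in IgG. The 2 Hnrnpf probe sets above the floor in Msi1 thus shared the direction against IgG, and all 3 spanned −4.50 to −0.55 in Msi1 minus input. Probe positions were not used here, and all positions given are those of the genes. Whether probe sets of 1 symbol, here and for Hnrnph2, Hnrnpk and Ptbp1, read near-identical copies of the gene was not tested. Probe set identifiers of family genes with 1 probe set ran in blocks by chromosome. In that order the leading sets of Hnrnph2, Hnrnpk and Ptbp1 fell nearest to Ralyl (chromosome 3), Hnrnpl (chromosome 7) and Hnrnpa0 (chromosome 13). These are not the chromosomes of the genes they are annotated to.

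Hnrnph2, on chromosome X (134601179 to 134607060), was the 1 transcript past 2-fold in the opposite direction, on its leading probe set only. Its 2 probe sets did not share that direction. The leading one read 6.04 in Msi1, 5.69 in hnRNP, 7.06 in IgG and 4.64 in input, a difference of −1.01 for Msi1 minus IgG (2.02-fold lower). The other read 5.68 in Msi1, 5.41 in hnRNP, 4.10 in IgG and 5.18 in input, a difference of 1.58 (at least 1.33-fold higher). The gap of 2.60 between them exceeded the median gap of 0.97 and lay below the 90th percentile of such gaps, 2.79. The call for Hnrnph2 rests on which of the 2 is read, and by identifier order the leading one fell nearest to a gene of chromosome 3.

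Hnrnpk and Hnrnpu were higher in Msi1 than in IgG yet, as deposited, lower than in input by 2-fold or more. Hnrnpk (chromosome 13, 58391132 to 58403343), whose protein binds cytidine-rich RNA and DNA through KH domains, read 7.32 in Msi1, 4.52 in hnRNP, 4.94 in IgG and 9.73 in input. Its Msi1 minus IgG difference was 2.38 (at least 4.16-fold), and Msi1 minus input was −2.41. The other 2 Hnrnpk probe sets gave 1.31 and 1.34 against IgG and −1.32 and −2.93 against input, so all 3 shared both directions. Hnrnpu (chromosome 1, 178321108 to 178338891), which encodes scaffold attachment factor A of the nuclear matrix, read 7.87 in Msi1, 5.12 in hnRNP, 5.35 in IgG and 9.99 in input. Its Msi1 signal was 5.70-fold that of IgG, which lay close to its floor, and was 4.36-fold lower than that of input. Against input neither stayed past 2-fold with loess centring, where Msi1 minus input was −0.83 for Hnrnpk and −0.53 for Hnrnpu.

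Hnrnpd, Hnrnpl and Ptbp1 encode proteins with distinct RNA preferences. Hnrnpd (chromosome 5, 99955935 to 99979130), also called AUF1, binds AU-rich elements that mark mRNA for decay. It read 6.72 in Msi1, 5.58 in hnRNP, 4.42 in IgG and 6.83 in input, so that Msi1 exceeded IgG at least 2.74-fold and was level with input. Hnrnpl (chromosome 7, 28808546 to 28822268), a splicing regulator that binds CA repeats, read 6.75 in Msi1, 5.59 in hnRNP, 6.39 in IgG and 7.98 in input. Its difference of 0.36 from IgG lay inside the central 95% of the receptor genes.

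Ptbp1 (chromosome 10, 79854432 to 79864435), the polypyrimidine tract-binding protein that represses exons in non-neuronal cells, was below the floor in Msi1 on both probe sets. The leading one read 4.62 in Msi1, 6.58 in hnRNP, 5.36 in IgG and 9.28 in input, and the other 4.65, 3.99, 4.19 and 7.55. Msi1 minus IgG was −0.73 on the first. On the second, both signals were below their floors. Against input the first was at least 23.3-fold lower in Msi1 (−4.66 as deposited) and the second at least 7.03-fold lower.

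**Figure D2:**
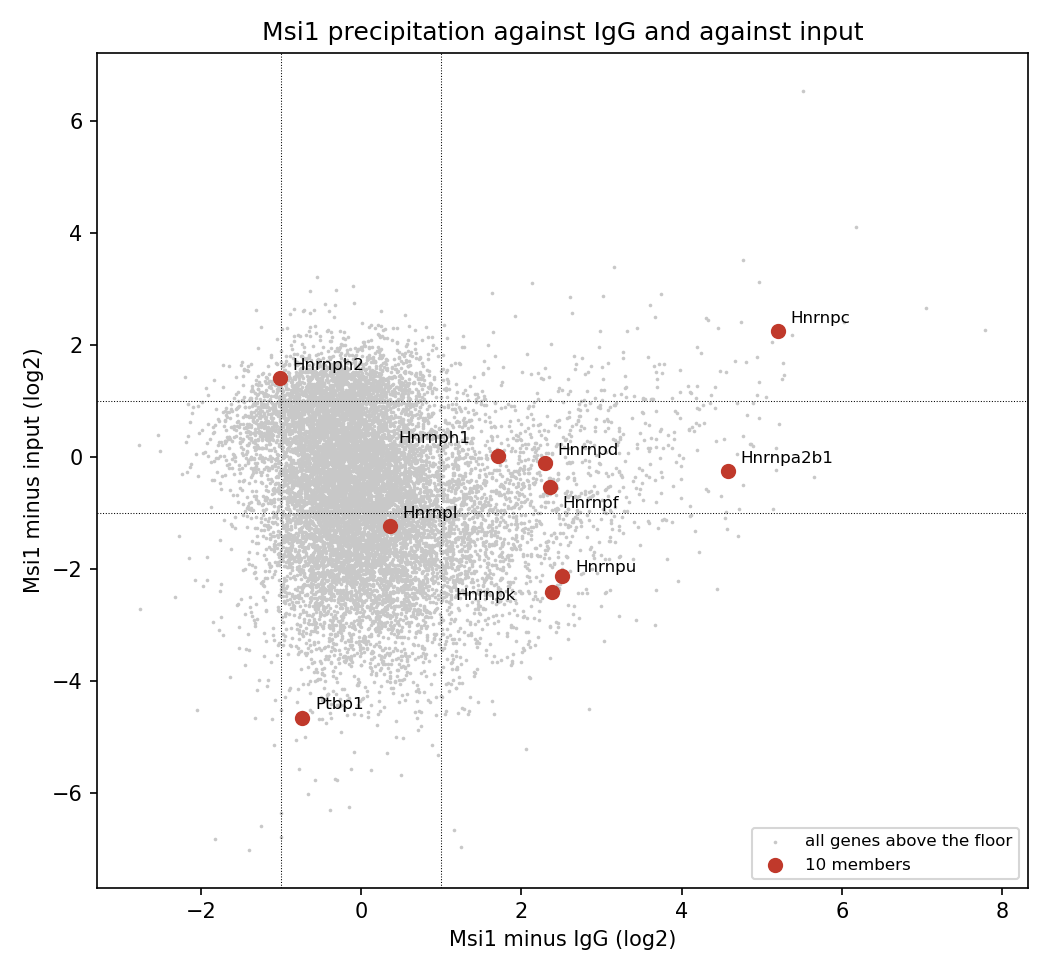
Each gene's difference of Msi1 minus IgG (horizontal axis, log2) against Msi1 minus input (vertical axis, log2); grey points are all genes above the floor on any of the 3 arrays, red points the 10 hnRNP transcripts, and dotted lines mark 2-fold. Both axes share the Msi1 array. Hnrnpc lies at 5.20 and 2.24, Hnrnpa2b1 at 4.57 and −0.25, and Ptbp1 at −0.73 and −4.66.

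Against input, the 10 transcripts spread widely: 2 were higher in Msi1 by 2-fold or more (Hnrnpc and Hnrnph2), 4 lower by as much (Hnrnpk, Hnrnpu, Hnrnpl and Ptbp1) and 4 neither. Of 12775 genes tested, 11.8% were higher and 38.4% lower, and among genes more than 2-fold above the floor in input these shares were 2.68% and 57.8%. The median difference of the 10 was −0.40, against −0.57 for all genes tested. The central range of the receptor genes, taken as for IgG, was −0.43 to 1.62 in this comparison. It takes in Hnrnph2 (1.40), while Hnrnpc and the 4 lower transcripts lay outside it. The other Hnrnph2 probe set gave 0.50, and on the leading one IgG minus input was 2.41, more than Msi1 minus input. Of the 7 transcripts higher than IgG, 1 (Hnrnpc) exceeded input too, 4 were within 2-fold of it and 2 were below it by 2-fold or more.

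This comparison moved with the scaling of the arrays, whose spreads were unequal, with an SD over all probe sets of 1.38 for Msi1 and 2.01 for input. Quantile normalization shifted the median of Msi1 minus input over all genes tested by 0.47, loess centring by 0.50 and median centring by −0.25. Over the 3 scalings Hnrnpc lay between 1.98 and 3.78 and Ptbp1 between −4.91 and −3.24, so both kept their side of 2-fold. Hnrnpl took the values 0.09 with quantile normalization and 0.26 with loess centring, against −1.23 as deposited. Hnrnpa2b1, Hnrnph1, Hnrnpf and Hnrnpd, within 2-fold of input as deposited, were past 2-fold higher with loess centring, at 1.34, 1.40, 1.02 and 1.25. Hnrnpu was −0.80 and Hnrnpk −1.03 with quantile normalization. The count of transcripts at least 2-fold higher was 6 with loess centring and 3 with quantile normalization, against 15.2% and 12.2% of all genes tested. The count lower was 1 and 2, against 21.9% and 18.9%. Msi1 minus IgG shifted by −0.05 to 0.13 in the median. Its count of 7 higher was the same under all 3, against 20.8% to 22.4% of all genes tested.

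**Figure D3:**
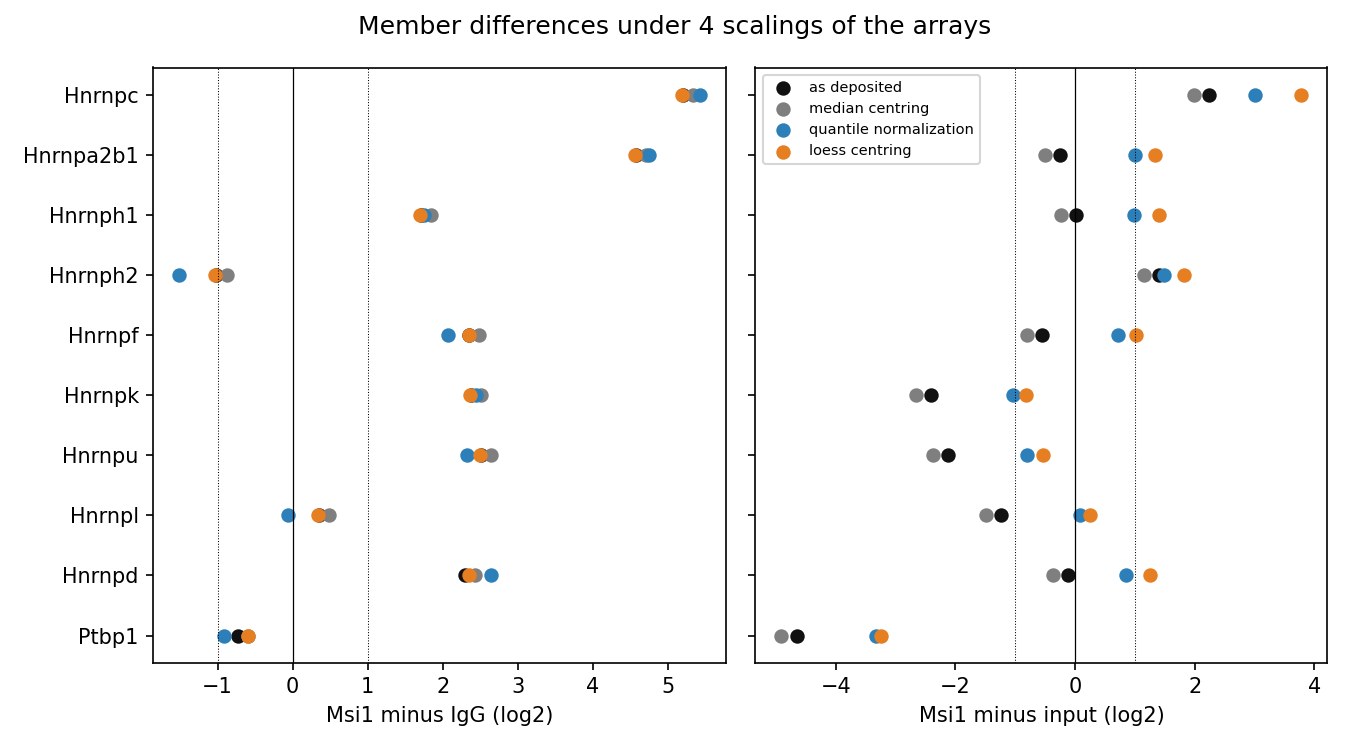
Difference of Msi1 minus IgG (left) and of Msi1 minus input (right), in log2 units, for the 10 hnRNP transcripts (rows) as deposited and under median centring, quantile normalization and loess centring; dotted lines mark 2-fold. On the left Hnrnpl lies on both sides of 0 (0.36 as deposited, −0.07 with quantile normalization) and Hnrnph2 on both sides of the 2-fold line (−1.51 with quantile normalization, −0.88 with median centring). On the right Hnrnpl, Hnrnpa2b1, Hnrnph1, Hnrnpf and Hnrnpd lie on both sides of 0, and all but Hnrnpl of these pass 2-fold with loess centring.

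The same transcripts were also read with the hnRNP antibody. Against IgG, 7 of the 10 could be compared, since Hnrnpc, Hnrnph1 and Hnrnpk were below the floor with both antibodies. Hnrnpa2b1 (1.22), Ptbp1 (1.22) and Hnrnpd (1.16) were at least 2-fold higher in the hnRNP precipitate and Hnrnph2 (−1.37) was lower, whereas 6.27% of 7912 genes tested were higher and 4.51% lower. The central 95% of receptor genes lay between −1.42 and 1.25 in this comparison, which takes in all 4 of these values. With IgG raised to its floor, Hnrnpa2b1 was at least 1.14-fold and Hnrnpd at least 1.24-fold higher, which is under 2-fold. Ptbp1 was above both floors on its leading probe set, 2.33-fold higher, while its other probe set was below both. The other probe set of Hnrnph2 went the opposite way, at 1.31 (at least 1.10-fold higher).

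Between the antibodies themselves, 8 of the 10 were higher in Msi1 by 2-fold or more and 1, Ptbp1, was lower by as much, against 17.5% and 7.79% of 10658 genes tested. Hnrnpc differed by 5.59 as deposited (at least 14.6-fold) and Hnrnpa2b1 by 3.35 (10.2-fold). Hnrnpl, which did not pass 2-fold over IgG, was 2.22-fold higher in Msi1 than in hnRNP. Ptbp1 differed by −1.95 (at least 3.58-fold lower) on its leading probe set, and both signals of its other probe set were below their floors. Hnrnph2 differed by 0.35 on one probe set and 0.27 on the other. This comparison shares the Msi1 array with that against IgG.

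As deposited, both other precipitates read lower than input for most of these transcripts. In the hnRNP precipitate 9 of the 10 were at least 2-fold lower than in input, and in the IgG precipitate the same number, with Hnrnph2 on its leading probe set higher in both. Over all genes tested 43.3% were lower in hnRNP than in input and 44.7% lower in IgG than in input, while 18.6% and 16.6% were higher. The shares among genes more than 2-fold above the floor in input, as 9 of the 10 were, were not computed here. For Msi1 over input, the share lower was 57.8% among such genes, against 38.4% of all genes tested. Hnrnpu was at least 28.3-fold lower in hnRNP and 24.9-fold lower in IgG than in input, and Hnrnpk at least 23.7-fold and at least 22.1-fold lower. These counts moved with the scaling. For hnRNP over input the 9 lower became 4 with quantile normalization, against 31.4% of all genes tested, and 3 with loess centring, against 27.8%. With loess centring hnRNP minus input was above 0 for Hnrnpf (0.28), Hnrnpd (0.34) and Ptbp1 (0.49). For IgG over input the 9 became 7 with quantile normalization (32.2% of all genes) and 6 with loess centring (26.7%), and Hnrnpl changed sign (0.16 and 1.15).

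Other genes of the extended hnRNP family were read in the same way, from a list of 27 of which 23 had a probe set annotated to the gene alone. Of 20 that passed the floor in Msi1 or IgG, 11 exceeded IgG in Msi1 by 2-fold or more and 0 fell below it by as much, beside the 18.6% and 6.91% of all genes given above, and their median difference was 1.21. In 9 of the 11 the IgG signal was below its floor, and 7 of the 20 stayed past 2-fold once signals below a floor were raised to it, against 10.8% of all genes tested. Of the 20, 19 were more than 2-fold above the floor in input, and all 11 were among them, where the share of all genes was 27.1%. Syncrip, which encodes hnRNP Q, differed by 3.55 (at least 8.97-fold), and was also 2.06-fold higher than input. Ptbp3, a paralog of Ptbp1, differed by 3.21 (at least 3.88-fold), Hnrnpab by 2.70 (6.49-fold), the nuclear matrix protein gene Matr3 by 2.68 (at least 2.51-fold) and Pcbp2, a poly(C)-binding protein gene, by 1.90 (at least 2.66-fold).

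Paralogs did not always share a value. Ptbp3 read 7.22 in Msi1, 4.93 in hnRNP, 4.01 in IgG and 10.06 in input, and so was higher than IgG while Ptbp1 was not, though both were at least 2-fold lower than input. Ptbp2, the neuronal paralog, differed from IgG by 1.14, but its Msi1 signal of 5.25 did not exceed the IgG floor. Hnrnpdl, the relative of Hnrnpd, read 2.41-fold above IgG in Msi1, and Hnrnpll, the relative of Hnrnpl, differed by 1.37, with its Msi1 signal of 4.82 under the IgG floor. Raly, a relative of Hnrnpc, differed by 1.66, or at least 1.39-fold. Hnrnpul2 was at least 3.05-fold higher and Hnrnpul1 differed by −0.25, both relatives of Hnrnpu. Hnrnpa0, a relative of Hnrnpa2b1, differed by 0.42. The lowest of the list were Elavl1 (−0.58), which encodes the mRNA-stabilizing protein HuR, Pcbp3 (−0.50) and Pcbp4 (−0.37), and these 3 stayed within 2-fold.

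**Figure D4:**
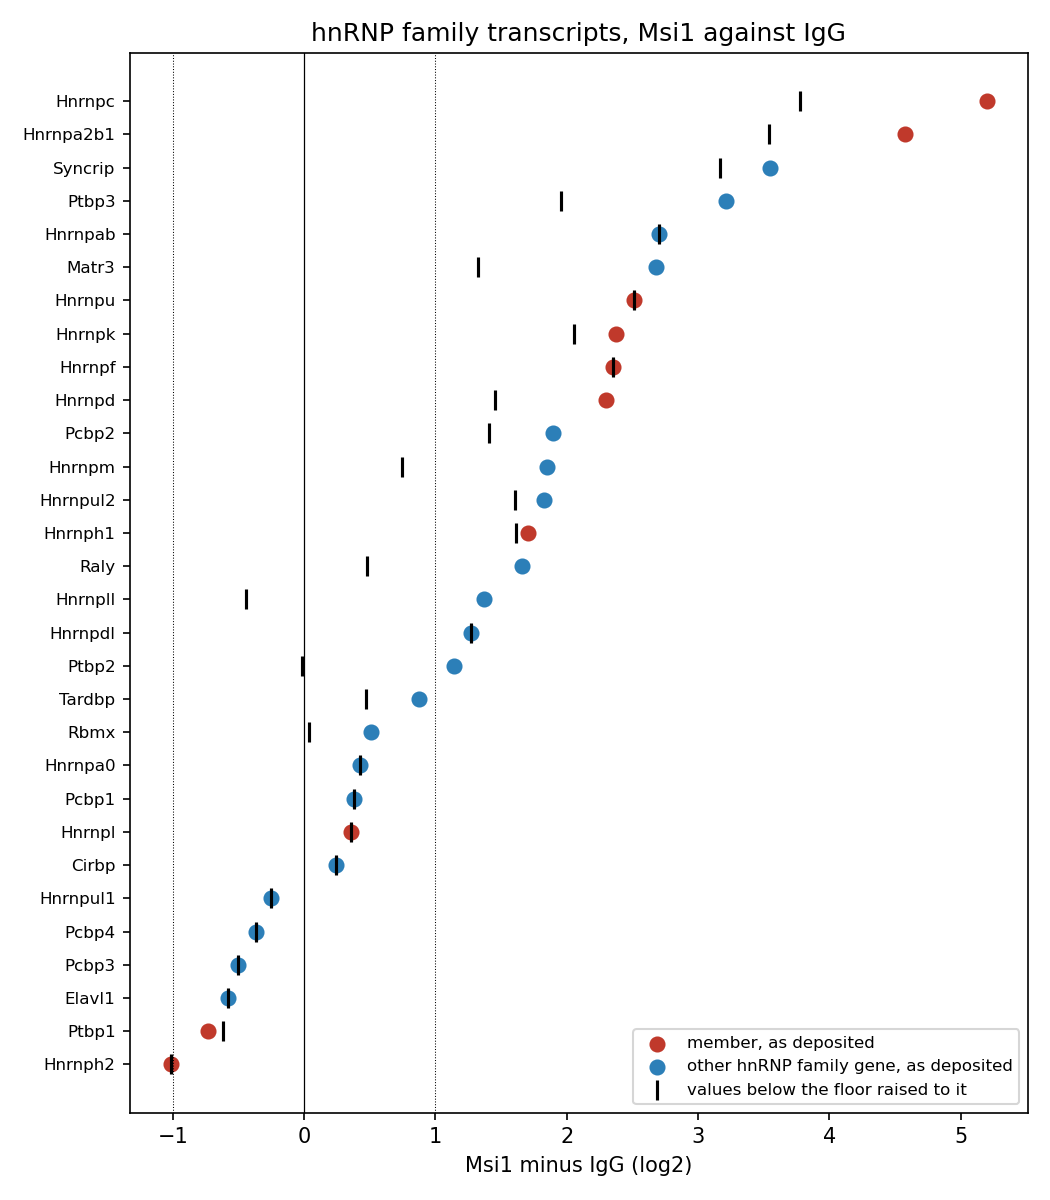
Difference of Msi1 minus IgG (log2) for the 10 hnRNP transcripts (red) and 20 other hnRNP family genes (blue) above the floor in Msi1 or IgG, ordered by value; black ticks give the difference after signals below a floor were raised to it, and dotted lines mark 2-fold. Hnrnpc (5.20) and Hnrnpa2b1 (4.57) lie at the top, followed by Syncrip (3.55), and Hnrnph2 (−1.01) lies at the bottom.

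In the other comparisons the wider list gave 2 of 22 above input in Msi1 by 2-fold or more (Syncrip and Pcbp3) and 12 below it, with a median of −1.20, against 11.8% and 38.4% of all genes tested. Syncrip (1.04) and Pcbp3 (1.52) both lay inside the receptor range of −0.43 to 1.62 for Msi1 minus input. Among the 20 of the 22 more than 2-fold above the floor in input, 11 were lower, against 57.8% of all such genes, and 1 was higher, against 2.68%. In hnRNP over IgG 1 of 12, Hnrnpm, was past 2-fold higher as deposited and 0 were lower, against 6.27% and 4.51% of all genes tested. The IgG signal of Hnrnpm was below its floor, and with IgG raised to that floor the fold was at least 1.18, which is under 2-fold. The transcripts of the Musashi genes were read for reference. Msi1 gave 8.09 in the Msi1 precipitate, 6.07 in hnRNP, 8.14 in IgG and 12.16 in input, and Msi2 gave 6.57, 6.20, 5.93 and 6.17. Neither was 2-fold higher in Msi1 than in IgG.

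The genes whose profile over the 4 arrays was most like that of Hnrnpc were found by Euclidean distance after each gene's mean was taken off, over 12653 genes. They were Tmem167 (distance 0.45), Stk17b (0.69), the calmodulin gene Calm2 (0.72), the phosphatase gene Ptp4a2 (0.86) and the kinase gene Taok1 (0.88), against a median distance of 4.66. Among the other 9 hnRNP transcripts the nearest to Hnrnpc was Hnrnpa2b1 (2.11) and the farthest Ptbp1 (5.99). Nearest to the median profile of the 10 (7.10 in Msi1, 5.52 in hnRNP, 5.26 in IgG and 8.22 in input) were Trim33 (0.08), Ndufa4 (0.09), Txnl1 (0.10), Cand1 (0.12) and Clk4 (0.13). With 4 arrays, such closeness is a description only.

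The sequences upstream of the start sites are shown for the 2 transcripts highest over IgG in Msi1 and the 2 lowest, each read on its leading probe set. The 2 lowest, Ptbp1 (−0.73) and Hnrnph2 (−1.01), lay inside the receptor range of −1.57 to 0.74 for Msi1 minus IgG. The other Hnrnph2 probe set gave 1.58. By identifier order, the leading probe sets of Ptbp1 and Hnrnph2 fell nearest to genes of other chromosomes. The 2 lowest are thus the low end of the list and were not shown to differ from IgG. Each line gives the 100 bases before the first listed start (RefSeq, GRCm38.p6, gene strand, 5′ to 3′), and capitals mark matches to the motifs searched. Hnrnpa2b1 has 2 listed starts, and its window lies inside the gene span given above. The Hnrnpc window overlaps the end of its span.
Hnrnpc, chr14:52104022-52104121, minus strand: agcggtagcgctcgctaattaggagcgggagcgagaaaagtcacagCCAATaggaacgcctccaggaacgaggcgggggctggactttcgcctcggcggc
Hnrnpa2b1, chr6:51469895-51469994, minus strand: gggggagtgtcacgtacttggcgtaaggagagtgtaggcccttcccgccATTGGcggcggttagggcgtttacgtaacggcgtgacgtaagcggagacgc
Ptbp1, chr10:79854332-79854431, plus strand: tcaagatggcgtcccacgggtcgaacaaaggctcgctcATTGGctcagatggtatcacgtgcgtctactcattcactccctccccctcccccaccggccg
Hnrnph2, chrX:134601079-134601178, plus strand: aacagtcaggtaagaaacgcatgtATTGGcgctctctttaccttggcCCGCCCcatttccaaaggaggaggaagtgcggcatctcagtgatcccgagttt

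Over the 250 bases before the first listed start of each gene, the CCAAT box (CCAAT, or ATTGG on the other strand) was found for 7 of the 10, against 34.5% of 27025 genes. The GC box (GGGCGG or CCGCCC) was found for 5, against 32.9%, the ETS motif (CCGGAAG or CTTCCGG) for 2, against 7.05%, and the TATA box (TATAAA or TTTATA) for 0, against 13.0%. The CCAAT letters stood in all 4 windows shown, both for the transcripts highest in Msi1 and for the lowest. The arrays measured precipitated RNA and not promoter activity, and these matches describe letters only.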

How the data were processed

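RNA of 4 groups was read on 1 Affymetrix Mouse Gene 1.0 ST array each, grouped by the antibody in the labels. The log2 values were used as deposited by the authors, 1 per probe set and array. Per the submitters' processing notes the tool affy was used. Neither its version nor how the signals were background-corrected and scaled is stated there or elsewhere in the labels. Base 2 was inferred from the range of 1.07 to 14.3, and every fold rests on it.

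Of 34760 probe sets, 21640 carried 1 symbol in the platform annotation, 1321 several and 11799 none here, and 21553 matched RefSeq by Entrez identifier. A gene entered a comparison when 1 or both arrays compared read above the floor, and was called at a difference of 1 log2 unit. Where the dimmer signal was below its floor, the fold is a lower bound computed against that floor. No test was run, since each group has 1 array, and the number of arrays limits the precision.

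All 10 genes were named, with the 5 highest and 3 lowest of the wider hnRNP list, paralogs, the Musashi genes and the 5 genes nearest in profile. The genes, lists, motifs and settings were chosen with earlier results of these data known. Of the wider list, 4 genes had no probe set of their own here and were not analysed as genes. The code that makes the calls was run on simulated data, which checks the code and not the reliability of the calls made here. Computations used Python 3.11.15, pandas 2.3.3, numpy 2.4.6, statsmodels 0.14.6 and matplotlib 3.10.9. Alternatives covered scaling (loess span 0.4), floor, threshold and choice of probe set.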

Additional observations from a re-analysis of the deposited data

Results flagged for a closer look

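Probe sets annotated to several genes were left out of every comparison above, and 13 of them name a gene of the wider hnRNP list beside a pseudogene or another gene. None names 1 of the 10 transcripts. Of these 13, 10 passed the floor in Msi1 or IgG, and 8 were above the floor in Msi1 and read higher there than in IgG, the control, by 1 log2 unit or more as deposited, which is why they are given here. Over all 662 probe sets with several symbols tested in the same way, 27% did so. In 6 of the 8 the IgG signal was below its floor, and 7 stayed past 2-fold with IgG raised to it. The probe set shared by Hnrnph3 and Aff3 gave 2.64 for Msi1 minus IgG (at least 2.71-fold). The 4 shared by Hnrnpa1 with Gm10052, Gm5643 and a pseudogene gave 1.37, 1.9, 1.88 and 3.63. The one at 1.9 read 5.11 in Msi1, under the IgG floor of 5.26, and 3.21 in IgG, so no excess over the IgG floor was measured there, while those at 1.88 and 3.63 were at least 3.53-fold and at least 8.98-fold higher. Of 6 shared by Hnrnpa3 and Gm6793, 3 passed, with 1.18, 2.68 (at least 5.47-fold) and 3.72 (at least 12.0-fold), and the other 3 were below the floor in Msi1. The 2 shared by Rbmx and Rbmxl1 gave 0.93 and 0.88. Which of the genes named gave the signal was not tested.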

How the results depend on the processing

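Of 165 recomputed counts, 116 stayed within 1.5 times their value as reported and 49 did not, and of 337 recomputed differences of single transcripts 292 kept their direction and side of 2-fold where they were called. The cause of a shift was not tested, except where a setting by its construction tests fewer genes or moves the threshold. For Msi1 over IgG, the 7 transcripts higher became 2 with detection on both arrays, which tests 4. The 1 lower became 0 with median centring, the 3-fold threshold, the mean of probe sets and the probe set brightest on input, and 2 at 1.5-fold. For Msi1 over input, the 2 higher became 6 with loess centring and 1 at 3-fold, with the mean of probe sets and with the probe set brightest on input, and the 4 lower became 2 with quantile normalization and 1 with loess centring. For Msi1 over hnRNP, the 8 higher became 4 with detection on both arrays, and the 1 lower became 0 there and with the mean of probe sets. For hnRNP over IgG, the 3 higher became 1 with the floor at the 99th percentile, with both arrays required above it and after the dimmer value was raised to it, and 0 at 3-fold. The 1 lower became 2 with quantile normalization and at 1.5-fold, and 0 at 3-fold, with the mean of probe sets and with the probe set brightest on input. For hnRNP over input, the 1 higher became 0 with median centring, the 99th percentile floor, 3-fold, the mean of probe sets and the probe set brightest on input, and the 9 lower became 4 under quantile normalization, 3 under loess centring and 5 where both arrays had to pass the floor. For IgG over input, the 1 higher became 2 with loess centring and 0 with the mean of probe sets or the probe set brightest on input, and the 9 lower became 4 with detection on both arrays. In the wider family, the 11 higher in Msi1 over IgG became 2 where both arrays had to pass the floor and 7 after the dimmer value was raised. The 2 higher in Msi1 over input became 4 with quantile normalization and at 1.5-fold, 1 with median centring, 5 with loess centring and 0 at 3-fold. The 1 higher in hnRNP over IgG became 2 without a floor and at 1.5-fold, and 0 at the 99th percentile floor, at 3-fold, with the dimmer value raised and where detection on both arrays was required. Called differences changed sign in 11 cases. With the probe set brightest on input, Hnrnph2 gave 1.58 in Msi1 minus IgG (0.28 with the mean of probe sets), 1.31 in hnRNP minus IgG and −1.08 in IgG minus input. Hnrnpl gave 0.091 with quantile normalization and 0.26 with loess centring in Msi1 minus input, and 0.16 and 1.15 in IgG minus input. With loess centring, hnRNP minus input was 0.28 for Hnrnpf, 0.34 for Hnrnpd and 0.49 for Ptbp1. Signals near or below the floor limit every fold against IgG or hnRNP.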
